A study of Oryza sativa Japonica Group with 8 samples.

Results

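Abscisic acid (ABA) is a plant hormone of water stress and dormancy, and its level in a tissue is set by synthesis and by breakdown. The NCED genes encode epoxycarotenoid dioxygenases, plastid enzymes that cut a carotenoid precursor and catalyse the step usually held to limit ABA synthesis. The ABA8ox genes encode ABA hydroxylases of the cytochrome family CYP707A, which start the main route of ABA breakdown.

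The genes described here are 6 of the 38726 features of the count table, chosen by locus identifier: NCED3 (Os03g0645900, chromosome 3), NCED4 (Os07g0154100, chromosome 7), NCED5 (Os12g0617400, chromosome 12), ABA8ox1 (Os02g0703600, chromosome 2), ABA8ox2 (Os08g0472800, chromosome 8) and ABA8ox3 (Os09g0457100, chromosome 9). All 6 loci were in the table, and all 6 passed the filter on low counts in each comparison. The files pair no gene name with a locus, so the member names are those under which the loci were listed, and chromosomes were read from the identifiers.

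Pistils, the female organs of the flower, came from untreated wild-type rice of the cultivar Nipponbare at heading. Whole-cell RNA was sequenced from an upper and a lower part (n = 3 each), and 2 further libraries were made from the RNA of fluorescence-sorted pistil nuclei. The labels do not give the line of dissection, the age or number of plants, or whether replicates came from separate plants, so the p-values measure only the spread between these libraries. Whole-cell libraries held 24796307 to 35518142 counts in all, and the nuclei libraries 10857036 and 9268151. Nuclei and whole cells were made into libraries with different kits, so for every nuclei value the compartment cannot be told apart from the kit.

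All 5 loci listed as carpel and ovule markers had a mean of at least 1 CPM (counts per 1000000 counts of the library, with library sizes scaled by TMM, edgeR's trimmed mean method) in each group, with summed levels of 1450 to 2400 CPM in whole cells and 1780 and 1150 CPM in nuclei. The 6 loci listed for anther and tapetum summed to 3.65 to 6.78 CPM in whole cells and to 15.8 and 6.66 CPM in nuclei. Each of them had a count in nuclei. The 3 loci listed for stamen and lodicule summed to 783 to 1150 CPM in upper libraries and to 490, 326 and 994 CPM in lower replicates 1, 2 and 3. In nuclei they summed to 248 and 496 CPM. Lower replicate 3 was more like the upper libraries than its own group, with mean Spearman correlations across genes of 0.919 and 0.878. The part of such tissue differences in the ABA gene values was not tested.

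One property of the counts bears on every value below. For 5 of the 6 genes the feature with the most similar profile was the very next locus identifier on the chromosome, and its counts followed those of the gene in every library. Os02g0703700 had between 0.972 and 0.999 times the count of ABA8ox1 in each of the 8 libraries. Os07g0154201 had 0.866 to 1 times the count of NCED4, and Os03g0645966 had 0.766 to 0.863 times that of NCED3. The ratio ran from 0.654 to 0.857 for Os09g0457250 beside ABA8ox3, and from 0.515 to 0.775 for Os08g0473200 beside ABA8ox2. NCED5 was the exception, since its neighbours Os12g0617250 and Os12g0617800 had 0.25 to 1.62 and 3.58 to 88.5 times its count. Among 22705 pairs of neighbouring loci, 1.77% were as alike as ABA8ox1 and its neighbour, and 10.8% as alike as ABA8ox2 and its neighbour. Whether the paired loci overlap and share reads was not tested, and the sources used here do not give the use of strand in counting. The counts of these 5 genes are therefore uncertain as to which locus the reads came from, and the next loci are no independent evidence.

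NCED3 was present at similar levels in both parts of the pistil and was much lower in nuclei. Upper replicates 1, 2 and 3 measured 23.4, 42.5 and 48.0 CPM, and the lower replicates, in the same order, 28.4, 23.6 and 45.9 CPM. The upper and lower ranges overlapped almost entirely, and the upper library was the higher one in 2 of 3 replicate pairs. In nuclei NCED3 had 4.28 and 2.14 CPM, so both nuclei libraries lay below all 6 whole-cell libraries. In a bulk sample fewer cells of a type and less RNA per cell cannot be told apart, which holds for each level given here.

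NCED4 was the most variable of the 6 genes, and its variation followed the replicate number more than the part. The upper replicates measured 13.5, 3.24 and 51.6 CPM, the lower ones 11.6, 2.44 and 28.6 CPM. In both parts replicate 2 was lowest and replicate 3 highest, and the highest upper library was 15.9 times the lowest. NCED4 had 1 and 2 counts in the nuclei libraries, or 0.0911 and 0.251 CPM, both under the 0.273 and 0.377 CPM that 3 counts would give there. The 6 whole-cell libraries together held 2822 counts.

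NCED5 was counted at a few CPM at most. Upper libraries had 1.35, 0.595 and 4.79 CPM and lower libraries 3.01, 1.38 and 7.26 CPM, so the groups overlapped although the lower library was higher in all 3 pairs, by 2.23, 2.33 and 1.52 times. The pairs kept the order seen for NCED4, with replicate 2 lowest and replicate 3 highest in both parts. In nuclei the gene had 2 and 8 counts, or 0.182 and 1.01 CPM, and the second value lay within the upper range.

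**Figure D1:**
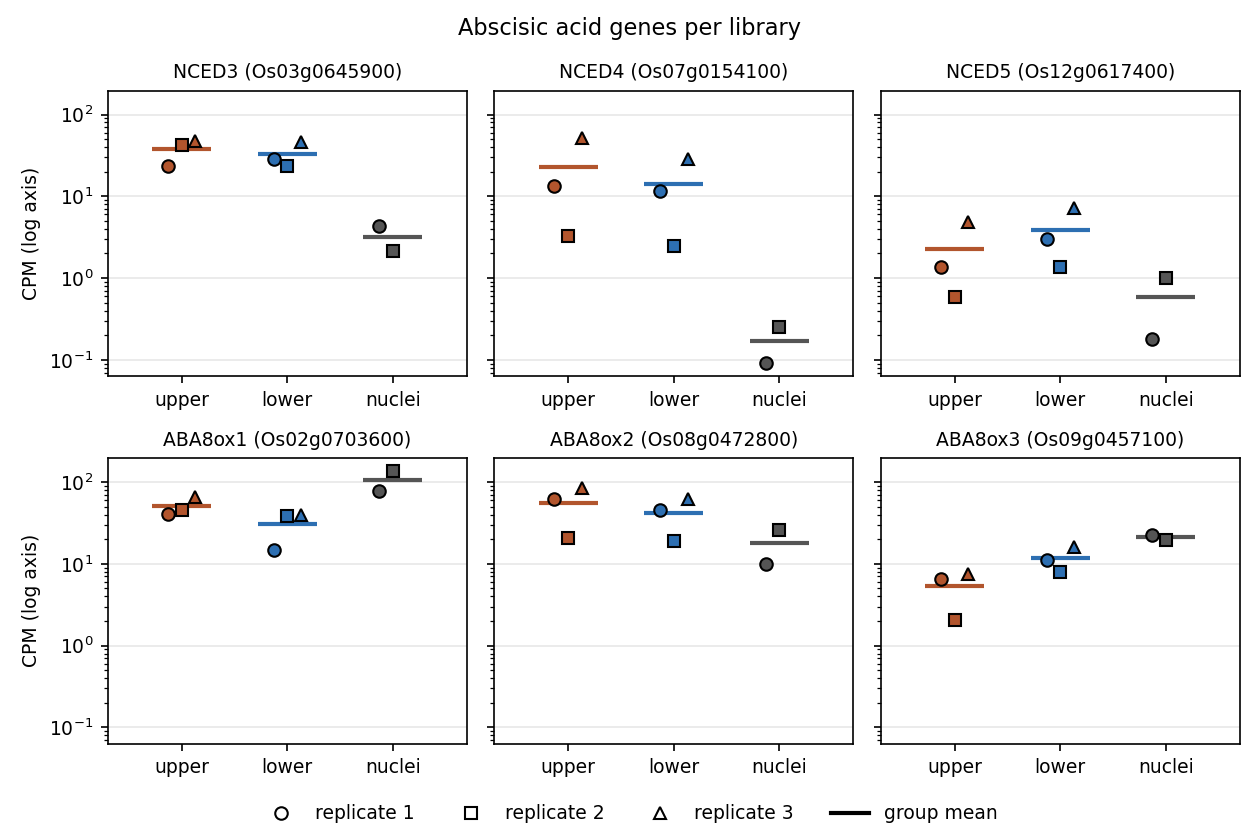
Level of each of the 6 ABA genes in each library, in CPM on a log axis, by group. Marker shapes give the replicate number and bars the group mean. NCED3 and NCED4 lie below all whole-cell libraries in nuclei, ABA8ox1 and ABA8ox3 lie above them, and replicate 2 is the lowest whole-cell replicate of NCED4, NCED5, ABA8ox2 and ABA8ox3 in both parts.

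Of the breakdown genes, ABA8ox1 was higher in every upper library than in any lower library. Its levels were 41.1, 45.0 and 65.9 CPM in the upper part and 14.9, 38.2 and 39.3 CPM in the lower part. The gap between the groups was narrow, and with total counts as the scaling the lowest upper value, 40.3 CPM, fell below the highest lower value, 42.8 CPM. Nuclei had the highest levels of this gene, 77.0 and 136.4 CPM.

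ABA8ox2 measured 61.4, 20.8 and 83.5 CPM in upper libraries, and 45.1, 19.0 and 61.6 CPM in lower ones. Replicate 2 was again lowest in both parts, and the upper library was higher in each of the 3 pairs, by 1.36, 1.10 and 1.36 times. Its nuclei levels of 10.0 and 25.9 CPM overlapped the whole-cell range.

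ABA8ox3 ran the other way between the parts. The upper libraries measured 6.56, 2.05 and 7.50 CPM and the lower libraries 11.3, 7.92 and 16.2 CPM, with no overlap by TMM scaling or by total counts. The lower library exceeded its upper partner by 1.72, 3.86 and 2.16 times in replicates 1, 2 and 3. Nuclei had 22.5 and 19.6 CPM, above every whole-cell library. With total counts as the scaling nuclei replicate 2, at 16.8 CPM, was just below lower replicate 3, at 17.1 CPM.

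By group means, NCED3 and ABA8ox2 were ordered upper, lower, nuclei, and neighbours in that order differed by less than 1 SD between upper and lower: NCED3 had 38.0 ± 12.9, 32.7 ± 11.8 and 3.21 ± 1.52 CPM (SD, n = 3, 3 and 2). ABA8ox2 had 55.3 ± 31.8, 41.9 ± 21.5 and 17.9 ± 11.2 CPM in the same order. ABA8ox1 was ordered nuclei, upper, lower, with 106.7 ± 42.1, 50.7 ± 13.3 and 30.8 ± 13.8 CPM, and ABA8ox3 nuclei, lower, upper, with 21.0 ± 2.05, 11.8 ± 4.18 and 5.37 ± 2.91 CPM. NCED4 averaged 22.8 ± 25.5 CPM above and 14.2 ± 13.2 CPM below, with an SD about as large as the mean. For NCED5 the means were 2.24 ± 2.24 and 3.88 ± 3.03 CPM, with 0.594 ± 0.582 CPM in nuclei. Levels are not compared between genes, since no transcript lengths were used.

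Replicate number marked a larger spread than the part for NCED4, NCED5 and ABA8ox2. The mean of the 2 libraries of replicate 2 was 2.84 CPM for NCED4, and the other replicates averaged 9.28 times as much. The same ratio was 4.15 for NCED5, 3.16 for ABA8ox2 and 2.08 for ABA8ox3. For ABA8ox3 the fitted difference between the parts was about as large, at 2.18 times. The ratio was 1.10 for NCED3 and 0.969 for ABA8ox1, which were lowest in replicate 1, with ratios of 1.54 and 1.68 there. How many of all genes were lowest in replicate 2 was not determined. The 5 loci listed as green tissue markers, summed, also set replicate 2 apart, with 473 CPM (upper library) and 996 CPM (lower library) against 197 to 230 CPM in the other whole-cell libraries. Their part in the low values of replicate 2 was not tested.

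The comparison of upper with lower parts asked which transcripts differ along the pistil, and none of the 6 genes passed its threshold. A call needed a Benjamini-Hochberg adjusted p under 0.05 over all genes and a change of at least 2-fold. Over all genes the share called was 0.814% without a block for the replicate number and 8.14% with it, so none of 6 is no result about these genes. By the edgeR quasi-likelihood test 0 of the 6 genes had an unadjusted p under 0.05 without the block, and 4 had one with it, against 13.9% and 33.5% of all genes. DESeq2 called 0 of the 6, with 0 at an unadjusted p under 0.05, against 4.75% and 15.8% of all genes.

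ABA8ox3 came nearest to a call. Its fitted log2 fold change, here called the log2 difference, was, upper minus lower, -1.12 (SE 0.54, adjusted p from edgeR = 0.400), and with the replicate block -1.25 (SE 0.31, adjusted p from edgeR = 0.0604). ABA8ox1 had a log2 difference of 0.73 (SE 0.42) without and 0.83 (SE 0.27) with the block, at edgeR adjusted p-values of 0.463 and 0.100. For NCED5 the values were -0.79 (SE 0.88) and -0.96 (SE 0.35), and for NCED4 0.68 (SE 1.06) and 0.52 (SE 0.20). For NCED4 the block reduced the standard error most. NCED3 and ABA8ox2 had log2 differences of 0.23 (SE 0.25) and 0.36 (SE 0.17) with the block. With the block the edgeR adjusted p-values of NCED3, NCED4, NCED5 and ABA8ox2 were 0.563, 0.143, 0.121 and 0.200.

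Without overlap of their groups, ABA8ox1 was higher and ABA8ox3 lower in the upper part. Across all genes tested 9.91% had every upper library above every lower library and 10.6% the reverse. All 3 pairs went the same way in 5 of the 6 genes: upward in the upper part for NCED4, ABA8ox1 and ABA8ox2, which 28.6% of all genes did, and downward for NCED5 and ABA8ox3, which 30.3% did. The block left ABA8ox3 without a call. With the block and without replicate 1, 2 or 3 its log2 differences were -1.47, -0.95 and -1.38, at adjusted p-values from edgeR of 0.0344, 0.214 and 0.0905. The call without replicate 1 came from a fit in which 4.18% of all genes were called lower.

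**Figure D2:**
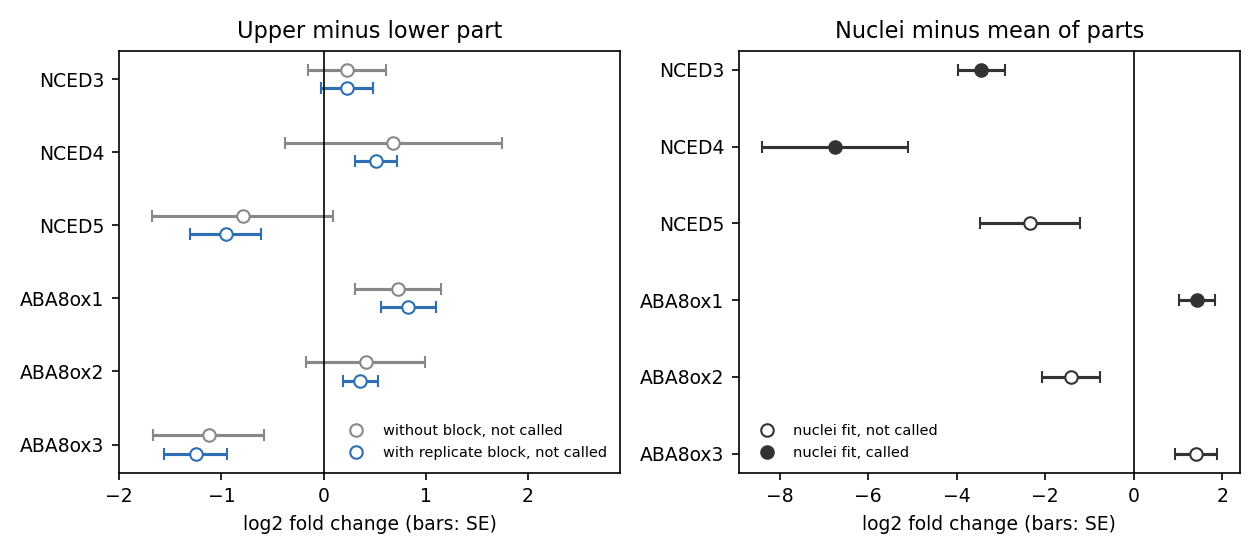
Fitted log2 difference for each gene, with an approximate standard error derived from the test statistic. Left, upper minus lower part, without and with the replicate block. Right, nuclei minus the mean of the parts. Filled points were called. No gene was called between the parts, and NCED3, NCED4 and ABA8ox1 were called in nuclei.

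The opposite shifts of ABA8ox1 and ABA8ox3 appeared most evenly in their count ratio within a library, which needs no scaling between libraries. The ratio was chosen after the values were seen and is given without a test. In upper replicates 1, 2 and 3 the counts of ABA8ox1 were 6.27, 21.9 and 8.79 times those of ABA8ox3, against 1.32, 4.83 and 2.42 times for the lower replicates. Every upper ratio lay above every lower ratio. This follows from the levels of the 2 genes, whose groups separated in opposite directions, and is no further evidence. Within pairs the upper ratio was 4.73, 4.54 and 3.63 times the lower one. In nuclei it was 3.42 and 6.96. On the log2 scale the mean ratios were 3.41 ± 0.93 in the upper part, 1.32 ± 0.93 in the lower part and 2.29 ± 0.72 in nuclei (SD, n = 3, 3 and 2).

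Within the breakdown genes, ABA8ox3 held 6.01%, 3.02% and 4.78% of the counts of the 3 ABA8ox genes in the upper libraries and 15.8%, 12.2% and 13.9% in the lower libraries. The 95% Wilson intervals, which cover counting error alone, reached at most 6.94% in the upper and went down to 10.96% in the lower part. These shares use the same counts as the levels and the ratio above, so they add no separate evidence. ABA8ox2 held 52.6% to 63.3% in replicates 1 and 3 of both parts, but 30.7% (upper) and 29.1% (lower) in replicate 2. The share of ABA8ox1 was highest in replicate 2 of each part, with 66.3% of upper and 58.7% of lower counts. Within the NCED genes, NCED3 held 91.7% of upper and 86.1% of lower counts in replicate 2. In the other whole-cell libraries it held 45.9% to 66.0%.

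**Figure D3:**
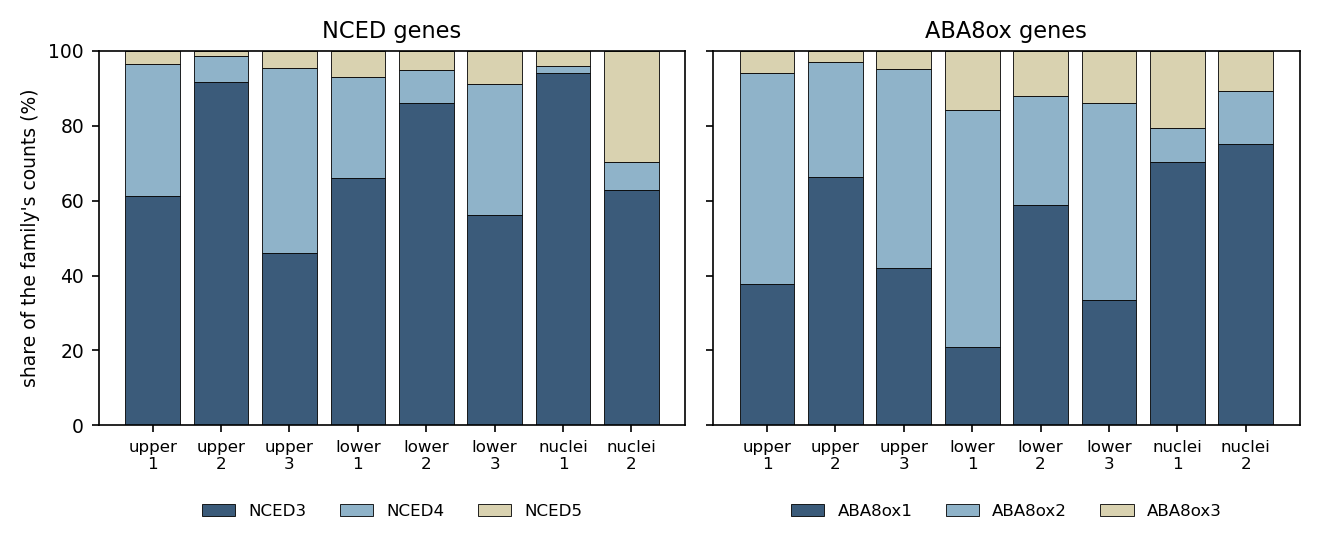
Share of each gene in the counts of its own group in each library, in percent, for the NCED genes (left) and the ABA8ox genes (right). ABA8ox3 takes 12.2% to 15.8% in lower libraries against 3.02% to 6.01% in upper ones, and replicate 2 has the smallest whole-cell share of NCED4 in both parts.

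Comparing the nuclei with the mean of the parts asks how nuclear RNA differs from whole-cell RNA of the same organ. NCED3 and NCED4 were called lower in nuclei, ABA8ox1 was called higher, and NCED5, ABA8ox2 and ABA8ox3 were not called. The breakdown genes were split, since the fitted value of ABA8ox2 was negative, as those of the NCED genes were. Over all genes tested 8.76% were called lower and 14.1% higher, together 22.9%. NCED3 had a log2 difference of -3.44 (SE 0.54, adjusted p from edgeR = 0.00240). By pooled counts it was 10.1 times higher in whole cells than in nuclei, with a 95% counting interval from 7.92 to 13.2, and 16.0 times without nuclei replicate 1. Both nuclei libraries lay below all 6 whole-cell libraries for NCED3 and NCED4, as they did for 17.6% of all genes.

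NCED4 had a log2 difference of -6.75 (SE 1.65, adjusted p from edgeR = 0.0181), which rests on 3 counts in nuclei. The ratio of pooled counts, whole cells over nuclei, was 99.2 with a 95% counting interval from 33.9 to 481.5. It was 62.6 (17.3 to 516.8) without nuclei replicate 1 and 172.6 (31.0 to 6820) without nuclei replicate 2. The call was lost in both cases, with edgeR adjusted p-values of 0.168 and 0.0883 and log2 differences of -6.14 and -7.58. Leaving out upper replicate 3 gave -6.04 and kept the call. NCED5 had a log2 difference of -2.35 (SE 1.13, adjusted p from edgeR = 0.154), and its pooled ratio of 5.29 ran from 2.78 without nuclei replicate 1 to 15.3 without nuclei replicate 2.

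ABA8ox1 had a log2 difference of 1.43 in nuclei (SE 0.41, adjusted p from edgeR = 0.0325). This call was close to the threshold and was lost when upper replicate 1, upper replicate 2 or lower replicate 1 was left out (adjusted p from edgeR = 0.0626, 0.0566 and 0.0501). It was also lost without either nuclei library (edgeR adjusted p = 0.0670 and 0.200), with log2 differences of 1.78 and 0.96, and against the upper part alone (log2 difference 1.07, edgeR adjusted p = 0.138). ABA8ox3 had nearly the same log2 difference, 1.40 (SE 0.48, adjusted p from edgeR = 0.0569), without a call. It was called with DESeq2 and against the upper part alone (adjusted p = 0.0444 and 0.0364), while its log2 difference against the lower part alone was 0.84 (edgeR adjusted p = 0.318). Both nuclei libraries lay above all whole-cell libraries for ABA8ox1 and ABA8ox3, which 17.6% of all genes shared. ABA8ox2 had a log2 difference of -1.42 (SE 0.65, adjusted p from edgeR = 0.136), which was -0.90 without nuclei replicate 1 and -2.28 without nuclei replicate 2.

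The share of NCED counts in the summed counts of the 6 genes was lower in both nuclei libraries than in any whole-cell library. It covers only the NCED genes and leaves out the other synthesis loci listed below. This share recombines the counts of the 6 genes given above and is no further evidence. It sets ABA8ox2 with the other ABA8ox genes, although its fitted value in nuclei was negative. Of the summed counts of the 6 genes, NCED genes made up 26.0%, 40.6% and 40.0% for upper replicates 1, 2 and 3. For the lower replicates they made up 37.7%, 29.6% and 41.1%. The parts overlapped, with means of 35.5 ± 8.26% and 36.1 ± 5.89% (SD, n = 3 each). In nuclei the share was 3.99% (95% Wilson interval 3.04% to 5.23%) and 1.83% (1.26% to 2.65%), from 1252 and 1475 counts. On the log2 scale the mean ratio of NCED to ABA8ox counts was -0.88 ± 0.54 in the upper part, -0.83 ± 0.38 in the lower part and -5.17 ± 0.82 in nuclei (SD, n = 3, 3 and 2). No test was run on this sum over chosen genes.

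**Figure D4:**
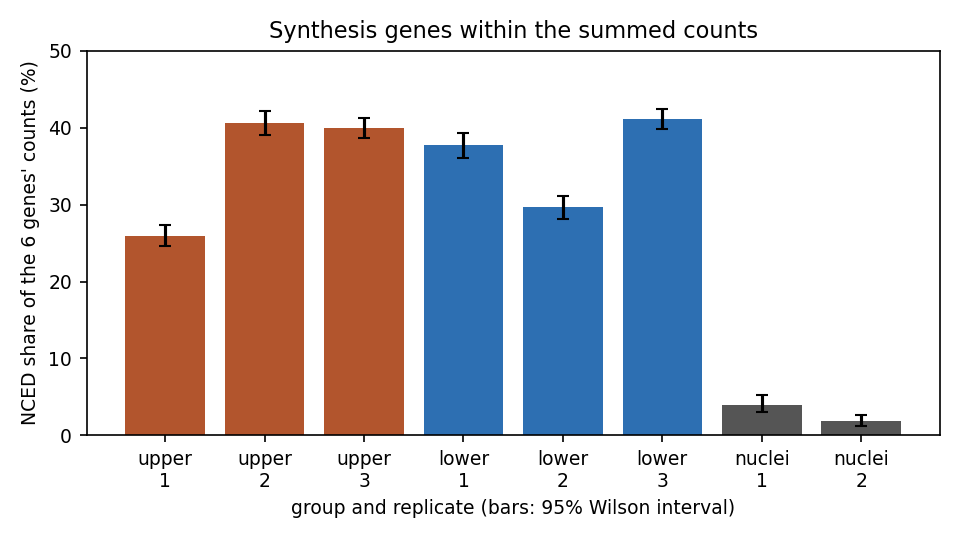
Share of the NCED genes in the summed counts of the 6 genes, in percent, for each library, with 95% Wilson intervals that cover counting error only. The whole-cell libraries lie between 26.0% and 41.1%, and the nuclei libraries at 3.99% and 1.83%.

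Other loci of ABA synthesis, perception and response were taken from lists compiled from general knowledge of rice, and their assignment could not be checked against names in the files. The lists hold 46 loci, all in the table, of which 44 passed the filter. Between the parts edgeR called 0 of 44, and DESeq2, run without that filter, called 2 of 45 lower. By edgeR 7 of the 44 had an unadjusted p under 0.05. The shares over all genes were 0.814% called by edgeR, 4.75% called by DESeq2 and 13.9% at that unadjusted p, so these counts are no result about the lists. With the replicate block 1 was called higher and 2 lower, against 8.14% of all genes called. Their median log2 difference with the block was 0.11, against -0.01 over all genes.

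In nuclei 10 of the 44 loci were called lower and 1 higher by edgeR, and DESeq2 called 16 of 45 lower and 1 higher. Over all genes edgeR called 8.76% lower and 14.1% higher, and DESeq2 11.6% lower and 14.4% higher. An unadjusted edgeR p under 0.05 was reached by 18 of the 44 loci, near the share over all genes, 38.5%. The median log2 difference of the 44 was -1.16, against -0.03 over all genes tested. Of the 9 loci listed as phosphatases that hold back ABA signalling 4 were called lower, among them Os05g0537400 (log2 difference -2.87, SE 0.47, edgeR adjusted p = 0.00298). Of the 6 loci listed as ABA transcription factors 3 were called lower, among them Os09g0456200 (-2.62, SE 0.56, edgeR adjusted p = 0.0104). Among 7 listed receptors 2 were called lower. The 10 listed SnRK2 kinases gave 1 lower and 1 higher, the latter being Os04g0432000 with 270.4 and 120.2 CPM in nuclei against 40.4 to 69.2 CPM in whole cells. None of the loci of the other synthesis list was called in nuclei, of 5 tested by edgeR and 6 by DESeq2. By edgeR 1 of them had an unadjusted p under 0.05. Of 7 listed responsive loci DESeq2 called 2 lower and edgeR none, with 1 at an unadjusted p under 0.05.

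**Figure D5:**
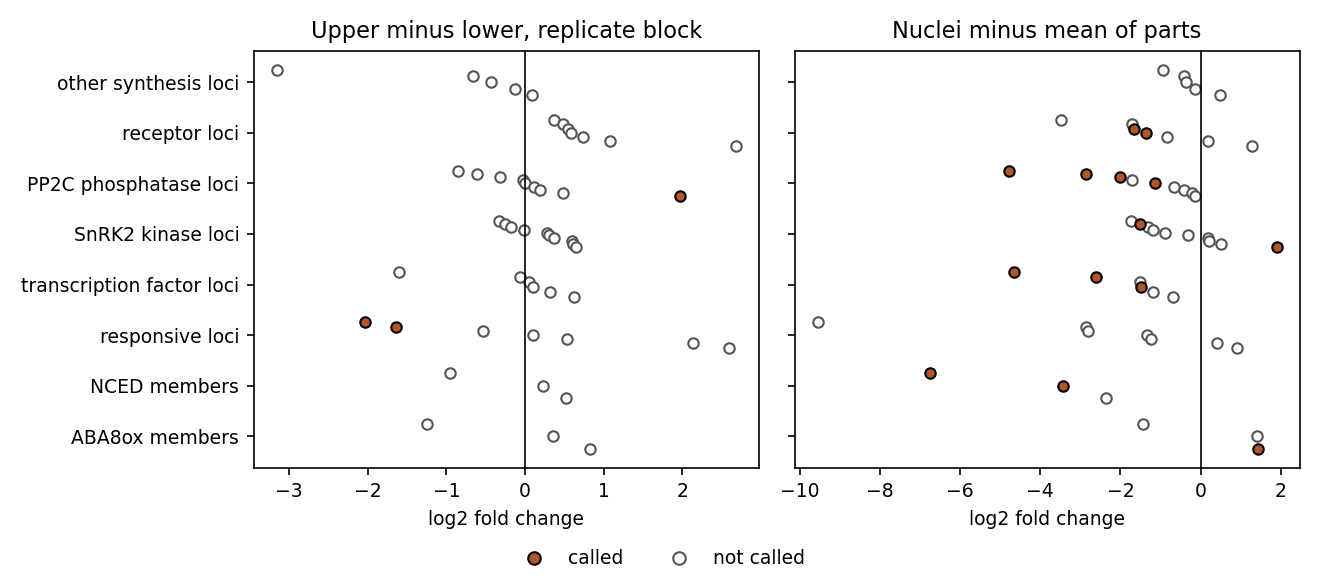
Fitted log2 difference of each tested locus of the ABA lists and of the 6 genes, upper minus lower with the replicate block (left) and nuclei minus the mean of the parts (right). Each point is a locus, and filled points were called. In nuclei 10 listed loci were called lower and 1 higher.

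Beyond the neighbouring loci, the features with profiles most like those of the 6 genes were found by the root mean square difference of log2(CPM + 1) profiles, centred on their means over the 8 libraries, among 28169 features. Next after its neighbour, ABA8ox1 was closest to Os07g0225300 (difference 0.181) and ABA8ox2 to Os03g0341300 (0.219). ABA8ox3 was closest to Os09g0396900 (0.308), NCED3 to Os12g0219700 (0.344) and NCED4 to Os05g0373900 (0.525). NCED5 was closest to Os02g0244000 and Os04g0116600 (0.290 and 0.345). The median difference from all features was between 1.07 and 1.99 for these genes. Among the 6 genes themselves the closest pair was NCED5 and ABA8ox2, with a difference of 0.536. For ABA8ox1 the closest of the others was ABA8ox3, at 1.02. NCED5 ran only from 0.182 CPM (nuclei replicate 1) to 7.26 CPM (lower replicate 3), and adding 1 flattens a profile at such levels. The differences given for NCED5 therefore rest partly on its low level.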

How the data were processed

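PolyA RNA of 8 libraries was measured. The submitters' processing notes name STAR, featureCounts, DESeq2 and the build IRGSP-1.0, without versions. The authors deposited 1 table of whole-number counts per feature and library, not normalized, and all its columns were matched to samples by name. No genome or sequence was used. The RefSeq gene table, of assembly ASM3414082v1, matched 0 of the 6 loci by identifier, so no coordinates are given.

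Counts were tested with edgeR 4.0.16 in R 4.3.3 (quasi-likelihood test, TMM scaling, filterByExpr with a minimum count of 10), in a fit of 6 libraries for upper against lower (29848 genes) and of 8 for nuclei against the mean of the parts (31858 genes). All genes tested entered the Benjamini-Hochberg adjustment. The SE beside a log2 difference is the absolute log2 difference divided by the square root of the F statistic of the quasi-likelihood test. It is approximate, above all at few counts. DESeq2 1.42.0, other scalings, no filter, a replicate block and leaving out libraries were alternatives. CPM used TMM over all 8 libraries. Floors are 3 counts, and intervals are 95% (Wilson for shares, exact binomial for ratios). The fits were also run on simulated data with known changes but without a replicate effect. That run does not bear on the pairing, and its recovery of changes is not given here.

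Replicate numbers come from the labels. Deviations from group means correlated across genes by 0.373, 0.694 and 0.674 for same-numbered upper and lower libraries, so these numbers were taken as pairs. Other combinations correlated by at most 0.0495. Deviations cancel out within each group, so these low values follow from the high ones and are no separate evidence. The nuclei were not taken as paired, since pairing by correlation was accepted only with at least 3 pairs. The 6 genes, the lists and the tests were chosen with earlier results of these data known. The named loci are all 6 genes, called loci of the lists, and the 2 nearest profiles per gene.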

Additional observations from a re-analysis of the deposited data

How the results depend on the processing

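Between the parts, 243 genes were called in all, 1690 with DESeq2 and 2431 with the replicate block. Leaving out a library gave 0 (without lower replicate 1, with 1589 higher and 842 lower at an unadjusted edgeR p under 0.05) to 958 (without lower replicate 3). With the replicate block and without replicate 1, 2 or 3 there were 3549, 98 and 2933. In nuclei 7293 genes were called, and 2378 to 6889 with a library left out. Over 15 alternatives each, the direction between the parts turned for some uncalled log2 fold changes, and the cause was not tested. NCED3 turned to -0.093 with library size only and to -0.11 with the replicate block and without replicate 2. With a library left out, NCED4 ran from -0.74 to 1.68, NCED5 from -1.98 to 0.022 and ABA8ox2 from -0.0023 to 0.80. No direction turned in nuclei for the 6 genes in these alternatives. NCED3 kept its nuclei call in all 15, at log2 fold changes from -4.04 to -3.05. Nuclei numbers were not taken as pairs, since only 2 exist. The deviation of nuclei replicate 1 correlated with those of upper and lower replicate 1 by 0.137 and 0.401. With those of the other 4 whole-cell libraries it correlated by -0.241 to -0.0618. Deviations cancel out within each group, so the latter values are no separate evidence. With the replicate block in the nuclei fit, NCED4 had -5.45, NCED5 -1.24 and ABA8ox2 -0.78, and ABA8ox3 was called at 1.82 (adjusted p from edgeR = 0.0108). With a library left out, the log2 ratio of NCED to ABA8ox counts ran from -1.05 to -0.57 (upper), -0.99 to -0.62 (lower) and -5.75 to -4.59 (nuclei). That of ABA8ox1 to ABA8ox3 ran from 2.89 to 3.80, 0.84 to 1.77 and 1.77 to 2.80. Depth limits NCED4 and NCED5 in nuclei, at 3 and 10 counts in all.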

Other observations

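Among the listed synthesis loci, Os02g0704000 on chromosome 2 had the largest difference between the parts, and it is named here after its values were seen. It had 0.375, 0.208 and 0.181 CPM in upper replicates 1, 2 and 3. Lower replicates 1, 2 and 3 had 1.03, 2.92 and 3.88 CPM, without overlap. The upper values were low, since 3 counts would give 0.112, 0.0892 and 0.136 CPM in those libraries. Across all genes tested 10.6% had every lower library above every upper library. The log2 fold change of Os02g0704000, upper minus lower, was -3.32 (SE 0.72, adjusted p from edgeR = 0.102). With the replicate block it was -3.16 (SE 0.75, adjusted p from edgeR = 0.0564). DESeq2 called it lower (adjusted p = 0.000542), in a fit that called 4.75% of all genes in either direction. In nuclei it had 1.27 and 1.00 CPM, within the whole-cell range.

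Of the listed responsive loci, 2 of 7, Os11g0454300 and Os11g0454200 on chromosome 11, were called lower in the upper part with the replicate block. That fit called 902 of 29848 genes lower and 1529 higher. The log2 fold changes of the 2 loci were -2.04 (SE 0.23, adjusted p from edgeR = 0.0136) and -1.64 (SE 0.23, adjusted p from edgeR = 0.0203). Without the block edgeR called neither (adjusted p from edgeR = 0.191 and 0.523). DESeq2, also without the block, called Os11g0454300 lower (log2 fold change -2.21, adjusted p from DESeq2 = 0.0139). It did not call Os11g0454200 (adjusted p from DESeq2 = 0.361). With the block Os11g0453900 and Os05g0542500 of that list had positive values, 2.60 (SE 0.70) and 2.14 (SE 0.62), which were not called (adjusted p from edgeR = 0.0708 and 0.0821). The median of the list was 0.0983. For Os11g0454300 the upper replicates measured 42.1, 16.4 and 23.0 CPM and the lower ones 229.9, 52.7 and 94.1 CPM, without overlap. In nuclei it had 164.9 and 52.6 CPM. The parts overlapped for Os11g0454200, with 28.3, 1.25 and 9.67 CPM in upper replicates and 112.5, 2.71 and 32.8 CPM in lower ones. Os05g0457200, from the phosphatase list, was called higher in the upper part with the block (log2 fold change 1.97, SE 0.37, adjusted p from edgeR = 0.0367) and lower in nuclei (-4.78, SE 1.17, adjusted p from edgeR = 0.0180). Without the block it was not called between the parts (log2 fold change 1.81, adjusted p from edgeR = 0.438). Upper libraries measured 323.9, 73.8 and 582.7 CPM, lower ones 47.8, 24.1 and 207.9 CPM, and nuclei 5.28 and 7.41 CPM.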
